A study of Mus musculus with 4 samples.

Results

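The ErbB receptors Egfr, Erbb2, Erbb3 and Erbb4 and the ligands Areg, Ereg, Btc, Hbegf, Tgfa and Nrg1 were followed in sorted epithelial cells of the mouse submandibular gland, a major salivary gland. Members were all non-control probes on the array that carry one of these gene names, which gave 13 probes of 10 genes among 55681 probes. RNA came from C57BL/6 mice aged 8 to 10 weeks and was hybridised to 4 one-colour Agilent arrays, 2 of stem cells from this gland and 2 of its non-stem cell epithelia, called the other epithelia from here on. Both populations were obtained fresh by flow cytometry, and the labels name no genetic change, drug or sort marker for either. The comparison asks how the stem cells differ from the other epithelial cells of the gland.

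ErbB receptors are tyrosine kinases of the cell surface that act in pairs. Egfr binds Egf, Areg, Ereg, Btc, Hbegf and Tgfa, Erbb3 and Erbb4 bind neuregulins such as Nrg1, and Erbb2 has no known ligand of its own but is the preferred partner of the others. The ligands are made as membrane proteins and most are released by metalloproteases, and the receptors signal through the Ras-MAPK and PI3K-Akt cascades. In the embryonic mouse submandibular gland ErbB signalling is known to promote branching, and the adult mouse gland is a rich source of Egf.

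The 4 probes shown here carry the results on Nrg1, on the forms of Egfr and on the neuregulin receptor Erbb3. Each is a 60-base oligonucleotide read from the deposited scanner files, written 5′ to 3′ in the sense of the transcript with positions on mm9, and capitals mark a stop codon that ends the probe in an open reading frame.
Nrg1, chr8:32928500-32928559, minus strand: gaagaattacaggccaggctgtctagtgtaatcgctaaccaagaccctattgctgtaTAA
Egfr variant 2 probe, chr11:16787172-16787231, plus strand: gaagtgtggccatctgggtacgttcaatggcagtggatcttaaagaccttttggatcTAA
Egfr upstream probe, chr11:16783556-16783615, plus strand: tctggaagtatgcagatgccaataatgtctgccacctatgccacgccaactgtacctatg
Erbb3, chr10:128006424-128006483, minus strand: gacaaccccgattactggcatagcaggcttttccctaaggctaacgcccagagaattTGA

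No member probe had a stretch of 20 bases in common with any other non-control probe of the array. The Nrg1, Erbb3 and Egfr variant 2 probes have an open frame that runs to a stop codon at the end of the probe. Neuregulin 1 is known for many transcript forms, and whether this probe reads all of them was not checked.

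Values are log2 signals relative to the 75th percentile of each array, and probes entered the test when 2 or more arrays showed them well above background. Signals of different probes are not comparable, so only differences between arrays are drawn from them. The 75th percentile of the signal was 34.0 to 48.9 on the stem cell arrays and 71.1 to 84.2 on the non-stem arrays, and 35.7% to 42.3% of spots were well above background. Of the 13 member probes 9 passed this filter, and they belong to 7 genes, while the single probes of Areg, Ereg and Btc and 1 of the 2 Erbb4 probes did not. Of the 9, 2 were higher and 2 lower in stem cells at an adjusted p under 0.05 by limma, and 0 were higher and 1 lower without non-stem replicate 1 or without non-stem replicate 2. The 2 lower probes, of Nrg1 and Erbb4, passed the filter through the non-stem arrays alone and were at background in stem cells. With a filter on all 4 arrays 0 member probes were lower. Over all 22645 tested probes 28.9% were called, 13.1% higher and 15.8% lower. Their median log2 difference was -0.01, against -0.23 over the member probes. The signals of the groups did not overlap for 6 of the 9, against 70.5% of all tested probes. The split of all calls moves with the scaling, since 45.2% of them were higher here, 58.5% with the percentile taken over detected probes and 32.1% with normexp background correction. The median over probes of the shift in a probe's own log2 difference was 0.13 and -0.22 under these settings.

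**Figure D1:**
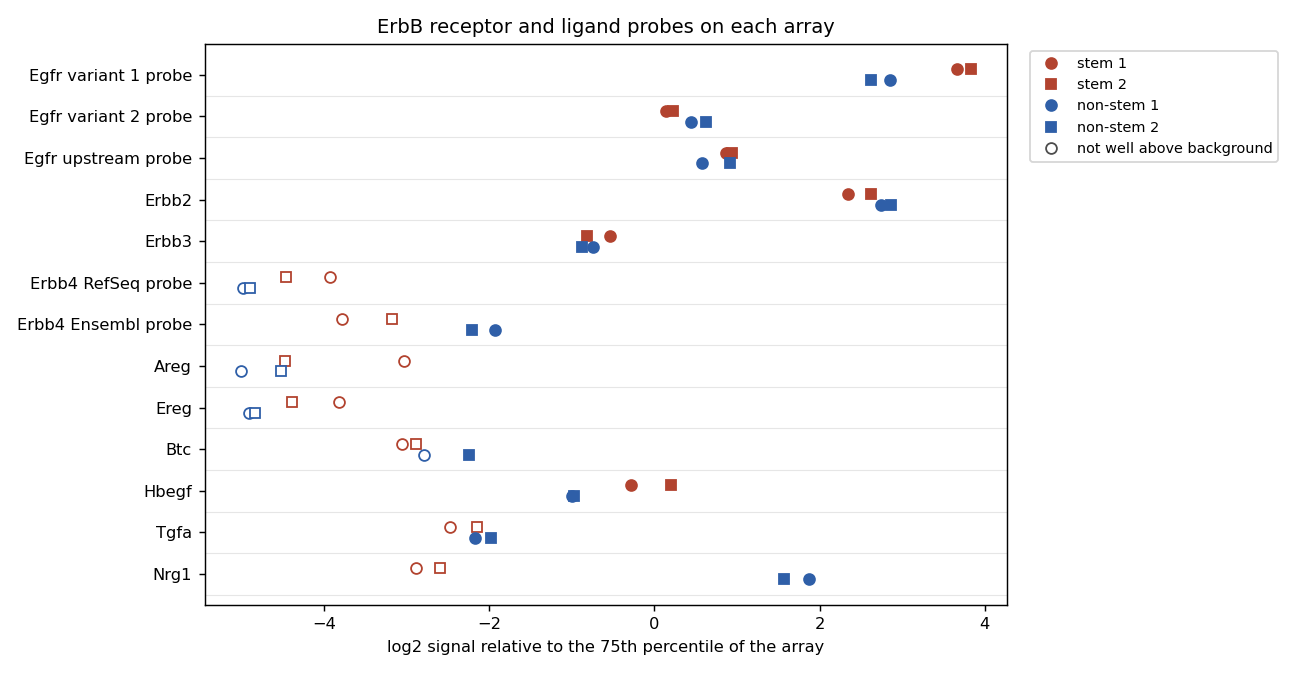
Log2 signal relative to the 75th percentile of the array (x axis) for the 13 member probes (rows) on the 2 stem cell and 2 non-stem arrays, with open symbols where a probe was not well above background. Nrg1 lies at 1.57 and 1.87 on the non-stem arrays and at background on both stem cell arrays, while levels in different rows cannot be compared.

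Nrg1, the neuregulin that activates Erbb3 and Erbb4, had the largest difference among the members and was lower in stem cells. In such bulk samples fewer cells of a type cannot be told apart from less RNA per cell. Its background-corrected signal was 4.59 and 8.08 for the stem cells, against 307 and 211 for the other epithelia, in the arbitrary units of the scanner. Both stem cell arrays were thus far below both non-stem arrays before any scaling, and the probe was not well above background on either of them. On the log2 scale the stem cell arrays stood at -2.89 and -2.60 and the non-stem arrays at 1.87 and 1.57. Since the stem cell values are at background, the difference is given as a bound, which put Nrg1 15.2-fold lower in stem cells. This bound sets the non-stem mean against a limit on each stem cell array. The limit is the array's lowest signal well above background or the probe's own, whichever was higher. On stem cell replicate 2 it was the probe's own -2.60. Tgfa, at -2.15 on that array, did not count as well above background either, so 15.2-fold is not a safe minimum. The fit without that limit gave a log2 difference of -4.46 ± 0.20 (SE, n = 2 arrays per group, adjusted p = 0.00043 by limma), which does not test the bound. With normexp the difference was -1.78 and passed the threshold as well.

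Nrg1 is the only neuregulin among the members, and its relatives were read from the list of other ErbB ligands. Of those 5 genes 2 were tested and both fell in stem cells, where 15.7% of all genes represented by their brightest tested probe did. Nrg2, a second neuregulin, averaged a log2 signal of 1.06 in stem cells, against 1.88 in the other epithelia on its brighter probe, and fell by 0.82 ± 0.15 (adjusted p = 0.016). Its dimmer probe moved alike, by -0.89 ± 0.18 (log2, adjusted p = 0.022), with 1 of the 2 stem cell arrays above background. Egf, the founding Egfr ligand and a secretory product of the granular ducts of the mouse gland, gave 442 and 700 signal units in stem cells, against 2766 and 2300 in the other epithelia. It fell by 1.26 ± 0.16 on the log2 scale (adjusted p = 0.0056). Nrg3 and the Egfr ligand Epgn were at background on all 4 arrays, and 1 of the 3 Nrg4 probes was well above background, on non-stem replicate 1 alone, so these genes were not tested.

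Hbegf, the heparin-binding Egfr ligand, was the 1 member ligand that rose. Its single probe lies on chromosome 18 at 36664738 to 36664797. It read 28.1 and 56.1 signal units in stem cells, against 42.1 and 36.2 in the other epithelia, so the groups overlap before scaling. After scaling to the 75th percentile the stem cell arrays stood at -0.28 and 0.20 and the non-stem arrays at -1.0 and -0.97, without overlap. The log2 difference was 0.95 ± 0.21, or 1.93-fold (adjusted p = 0.027), and the call was lost without non-stem replicate 1 (adjusted p = 0.14) or without non-stem replicate 2 (0.16). With normexp the difference was 0.49 and kept its call.

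Tgfa, a second Egfr ligand, was printed in 10 spots on each array, and its median spot read 6.49 and 11.4 units in stem cells, against 18.9 and 18.5 in the other epithelia. None of the 10 spots was well above background on stem cell replicate 1 and 4 of 10 were on replicate 2, against 10 of 10 on both non-stem arrays. After scaling the stem cell arrays stood at -2.48 and -2.15 and the non-stem arrays at -2.18 and -1.98, so the groups overlapped, and the log2 difference was -0.23 ± 0.19 (adjusted p = 0.40, 95% interval -0.71 to 0.25). Areg gave 4.15 and 2.20 units in stem cells, against 2.62 and 3.1 in the other epithelia, and Ereg stayed between 2.33 and 2.79 on the 4 arrays. Btc gave 4.10 and 6.63 units in stem cells, against 12.1 and 15.1 in the other epithelia, well above background on non-stem replicate 2 alone. The genes of Areg, Ereg and Btc lie near each other on chromosome 5, with probes at 91570090, 91522553 and 91786948, and their differences were not measurable at these signals.

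Among the receptors, Egfr differed by probe. The 10 spots of the probe listed for transcript variant 1, at 16813815 to 16813874 on chromosome 11, averaged 432 and 695 signal units in stem cells, against 609 and 438 in the other epithelia. The groups overlap in these units and separate after scaling, at 3.67 and 3.83 in stem cells against 2.85 and 2.62 in the other epithelia. This probe rose by 1.01 ± 0.17 on the log2 scale, or 2.02-fold (adjusted p = 0.013). Its spots on one array had an SD of 0.044 to 0.067 (log2), which covers spot noise within an array and not the spread between samples. The call was lost without non-stem replicate 1 (adjusted p = 0.068) or without non-stem replicate 2 (0.11). With normexp the difference was 0.53 and kept its call.

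The other 2 Egfr probes did not pass the threshold. The probe at the end of transcript variant 2, a shorter form, stood at 0.14 and 0.22 in stem cells, against 0.44 and 0.63 in the other epithelia, with a log2 difference of -0.35 ± 0.16 (adjusted p = 0.16). The upstream probe, which the file lists for variant 2 and for Ensembl transcripts, stood at 0.87 and 0.94 against 0.58 and 0.91, with overlap, and had a log2 difference of 0.16 ± 0.18 (adjusted p = 0.53). Whether it also reads variant 1 was not checked against the transcripts.

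**Figure D2:**
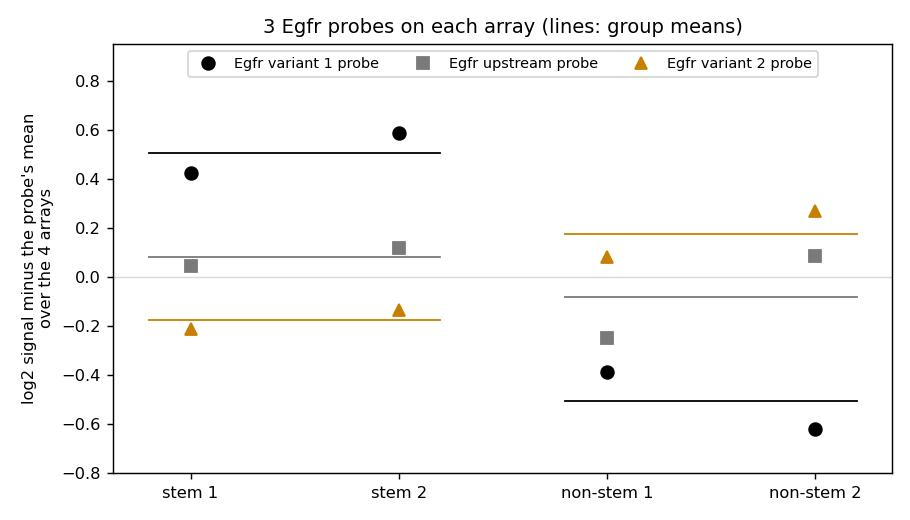
Log2 signal of 3 Egfr probes on each array, each minus its own mean over the 4 arrays (y axis), with lines at the group means. The variant 1 probe is higher on both stem cell arrays, with a difference of 1.01, while the variant 2 probe differs by -0.35 and the upstream probe by 0.16.

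A difference between probes taken within an array is not changed by multiplying all signals of that array by a constant. The variant 1 probe minus the variant 2 probe was 3.52 and 3.61 (log2) in stem cells, against 2.41 and 2.00 in the other epithelia, so this ratio was 2.57-fold higher in stem cells. Both stem cell arrays exceeded both non-stem arrays. An exact two-sided permutation test over the 4 arrays gave p = 0.333, the smallest that 2 against 2 allows. Against the upstream probe the ratio was 1.80-fold higher, again without overlap and with the same exact p. With normexp background correction these ratios were 1.72-fold and 1.48-fold. Of 2897 genes with several probes measured on all 4 arrays, 101, or 3.49%, had probes whose differences lay as far apart as those of Egfr, and the median spread was 0.35.

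Erbb2, the partner receptor, was also printed in 10 spots, and its mean signal was 173 and 301 units in stem cells, against 563 and 519 in the other epithelia. After scaling it stood at 2.34 and 2.62 against 2.74 and 2.87, without overlap. The log2 difference of -0.32 ± 0.18 did not pass the threshold (adjusted p = 0.23, 95% interval -0.77 to 0.13), though it did with normexp, at -0.59 (adjusted p = 0.0092). Erbb3, a receptor for neuregulins with little kinase activity of its own, stood at -0.53 and -0.81 in stem cells, against -0.74 and -0.88 in the other epithelia. These ranges overlap, and the log2 difference was 0.14 ± 0.18 (adjusted p = 0.59, 95% interval -0.31 to 0.58).

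Erbb4, the other neuregulin receptor, had 1 probe listed for its RefSeq transcript and 1 listed for Ensembl transcripts alone. The RefSeq probe read 2.22 to 2.66 signal units on the 4 arrays and was at background on each. The Ensembl probe, on chromosome 1 at 68078805 to 68078864, read 2.47 and 5.39 units in stem cells, against 22.02 and 15.4 in the other epithelia, and was above background in the latter alone. The bound used for Nrg1 came to 1.31-fold lower in stem cells here. On stem cell replicate 1 its limit, -1.81, lay above both non-stem values (-1.94 and -2.21). That array therefore bounds no fall, and 1.31-fold is not a safe minimum. The fit without that limit gave -1.41 ± 0.25 (adjusted p = 0.015), which turned to 0.12 with normexp (adjusted p = 0.51) and lost its call without non-stem replicate 1 (adjusted p = 0.11) or without non-stem replicate 2 (0.10).

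**Figure D3:**
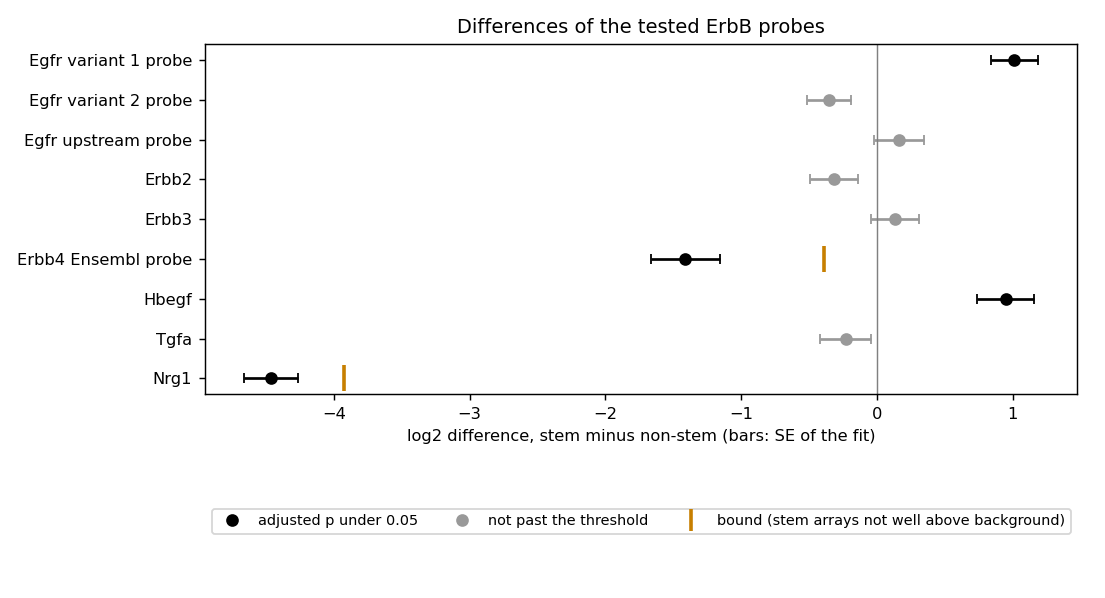
Log2 difference, stem minus non-stem (x axis), of the 9 tested member probes, with the SE of the fit as bars, black where the adjusted p is under 0.05, and a vertical mark at the bound for probes at background in stem cells. Nrg1 lies at -4.46 with a bound at -3.92, and the Egfr variant 1 probe and Hbegf lie near 1. Neither the mark of Nrg1 nor that of the Erbb4 Ensembl probe, at -0.39, is a safe minimum.

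The genes around the receptors were read from 7 lists by role, each gene by its brightest tested probe. Of their genes 91 were tested, and 20 were higher and 12 lower in stem cells, where 13.2% and 15.7% of all 17362 genes were. Their median log2 difference was 0.13, against -0.01 over all genes. The counts were 19 and 25 with normexp. They were 26 and 11 when the percentile came from detected probes, 6 and 1 without non-stem replicate 1, and 4 and 1 without non-stem replicate 2. Spike-in controls stood higher in stem cells by a median log2 of 2.26 on the scale used here (7 of 10 controls), and 2 of the 20 genes, Timp3 and Maff, exceeded that difference.

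Of 11 tested proteases that release ErbB ligands and their regulators, 5 rose and 1 fell. Timp3, an inhibitor of these proteases, rose by 2.45 ± 0.16, and Adam8 rose by 1.53 ± 0.33. Adam8 was well above background on 1 of the 2 non-stem arrays. Tspan8, a tetraspanin, rose by 0.89 ± 0.18 and Rhbdf2, which escorts Adam17 to the cell surface, by 0.61 ± 0.15. Adam9 fell by 1.73 ± 0.19. Adam17, the main sheddase of Hbegf, Areg and Tgfa, differed by 0.63 ± 0.19 on the log2 scale (adjusted p = 0.059), and Adam10, which releases Egf and Btc, 0.55 ± 0.18 (adjusted p = 0.072).

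Of 17 tested feedback inhibitors 6 rose and 4 fell. Errfi1, which binds ErbB kinases and blocks them, rose by 1.48 ± 0.19, from a mean of 4.22 to 5.70 on the log2 scale. Socs4 rose by 1.64 ± 0.16 and Lrig3 by 1.11 ± 0.18. Dusp6, a phosphatase of ERK, fell by 1.27 ± 0.17 and Dusp5 by 1.70 ± 0.25, the latter at background in stem cells. The bound for Dusp5 came to 1.05-fold lower. On stem cell replicate 1 its limit lay above both non-stem values, as for Erbb4, so this is not a safe minimum. Lrig1, which lowers receptor levels, fell by 0.63 ± 0.16 on its brighter probe, while its other probe had a difference of -0.42 (adjusted p = 0.17). Spry2, an inhibitor of Ras signalling, had a difference of 0.48 ± 0.17 (adjusted p = 0.086).

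Most cascade genes did not pass the test, which does not show that they did not differ. Of 15 tested Ras-MAPK genes none rose and 1 fell, the ERK kinase gene Map2k1, by 1.26 ± 0.17. Of 15 PI3K-Akt genes 3 rose and none fell, with the insulin receptor substrates Irs1 and Irs2 up by 1.62 ± 0.21 and 0.95 ± 0.15 and the transcription factor Foxo3 by 0.87 ± 0.16. Among 21 adaptors and turnover factors, Src and the ubiquitin ligase Cblb rose, by 1.28 ± 0.20 and 0.90 ± 0.16. Eps8 and Nck1 fell by 1.2 ± 0.19 and 0.79 ± 0.16. Of 10 ERK-responsive genes 4 rose and 2 fell. Maff rose by 3.18 ± 0.27, Egr1 by 1.83 ± 0.16 and Etv4 by 1.31 ± 0.23, while Phlda1 fell by 0.92 ± 0.15. Plaur was at background in stem cells, and its bound came to 5.24-fold lower. On stem cell replicate 2 its limit, -3.10, lay below the Tgfa value of -2.15, which did not count as well above background. The bound for Plaur is therefore not a safe minimum either.

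**Figure D4:**
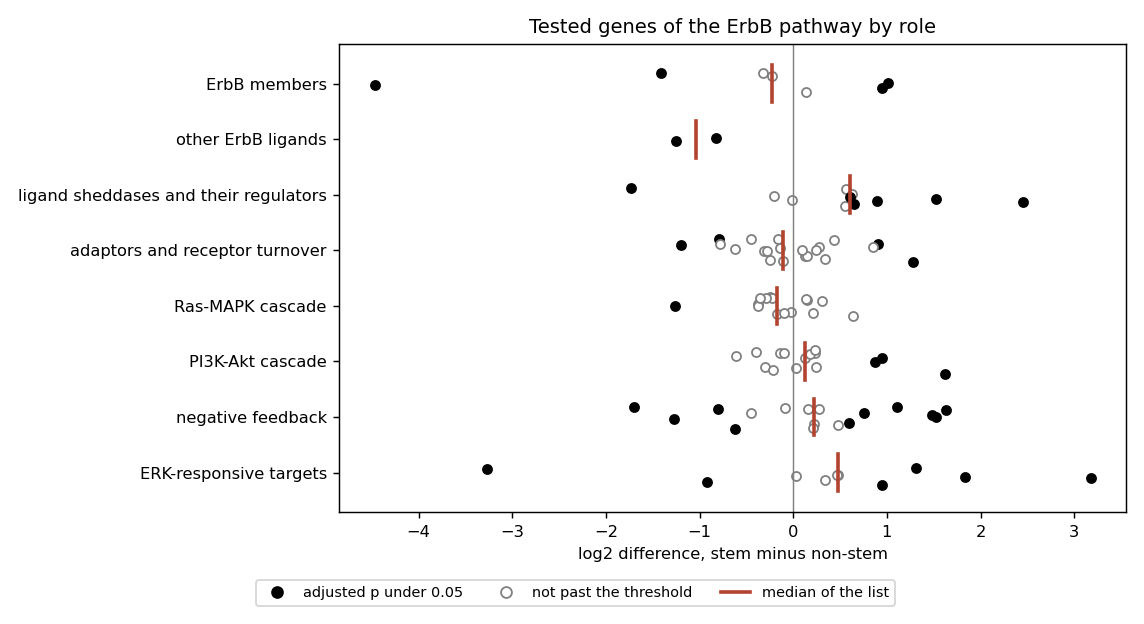
Log2 difference, stem minus non-stem (x axis), of each tested gene in the member list and in 7 lists by role (rows), filled where the adjusted p is under 0.05, with a vertical line at each list's median. The sheddase list has a median of 0.61 and the Ras-MAPK list one of -0.17.

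Cell type markers differed between the groups too. Of 9 tested acinar markers 6 fell in stem cells, and their summed signal, in units of the 75th percentile, was 729 to 749 in stem cells, against 4140 to 4368 in the other epithelia. Red cell markers fell in 4 of 4 (39.0 to 39.4 against 161 to 199.5). Of 2 tested mast cell markers Mrgprb1 fell and was at background in stem cells. The other, Tpsb2, had a log2 difference of 0.63 ± 0.18 (adjusted p = 0.0502 by limma). The mast cell sum was 3.62 to 3.66 against 5.01 to 12.4. Each sum takes in all genes of its list on the array, also those not tested. The acinar, red cell and mast cell sums, and the endothelial sum given below, were lower in stem cells, as were Nrg1 and Egf. Egf, a product of the granular ducts, thus moved against the sum of granular duct markers given below. Aqp5, the acinar water channel, fell by 3.19 ± 0.16, and Krt14, a basal keratin, rose by 3.17 ± 0.17. Of 8 basal and myoepithelial markers 4 rose (186 to 188 against 75.9 to 80.3), the basal genes Krt5, Krt14, Krt17 and Cdh3. The contractile myoepithelial genes Acta2, Cnn1 and Myh11 were not called, with log2 differences of -0.11, -0.36 and -0.21. Trp63 was not called on its brighter probe, at 0.56, while its other probe rose. Markers of granular ducts rose in 6 of 8 (1739 to 1752 against 318 to 319). Those of other ducts rose in 7 of 8 (473 to 508 against 177 to 186). The Egfr variant 1 probe and Hbegf rose too. The leukocyte marker Ptprc and the fibroblast marker Col1a1 were at background on all 4 arrays. In the other lists 1 of 5 tested leukocyte markers rose (64.4 to 82.1 against 41.0 to 45.7). Of 2 fibroblast markers 1 rose (19.6 to 20.9 against 8.16 to 8.71). Of 4 endothelial markers 1 rose and 1 fell (15.2 to 17.2 against 21.3 to 22.9), with Pecam1 at -0.50 (adjusted p = 0.39). The epithelial marker Epcam was well above background on all 4 arrays and fell by 1.22 ± 0.19, while 3 of the 7 epithelial markers rose (1301 to 1335 against 817 to 838). The leukocyte, fibroblast and epithelial sums were thus higher in stem cells too. The part of these cell types in the ErbB differences was not tested.

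Among 9998 genes measured on all 4 arrays, those whose pattern over the arrays was nearest to the Egfr variant 1 probe were Snora74a, Plppr4 and Klk1b9. Their Euclidean distances of centred log2 values were 0.027, 0.031 and 0.040, over 4 arrays. No member probe called lower was measured on all 4 arrays, so none was matched in this way.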

How the data were processed

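The deposited scanner files give each spot's intensity (linear, not normalized between arrays), from Agilent Feature Extraction 10.7.3.1 and with mm9 coordinates, per the file headers. The submitters' processing notes name version 9.1, and this was not resolved. All 4 arrays shared 1 slide and 1 scan. RNA was amplified into Cy3-labelled cRNA, per the labels' protocols. The authors' deposited series table holds log2 values with an unknown baseline per probe. Its differences between arrays correlated at 1 with those computed here, which settles its scale and direction. Its column medians were -0.28 and -0.55 for stem cells and -0.83 and -0.76 for the other epithelia.

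Control spots and flagged outliers were left out, log2 processed signals were shifted by each array's 75th percentile, and replicate spots were averaged. A probe counted as well above background where a share of at least 0.5 of its spots was. RefSeq's gene table (GRCm38.p6) named 26582 probes, 29099 kept the array's name, and members were matched by the array's name. Groups were compared probe by probe with limma 3.58.1 in R 4.3.3 (two-sided, Benjamini-Hochberg over all tested probes, threshold 0.05, 5.28 degrees of freedom). The fit was tested on simulated data. The labels do not say whether replicates are separate animals or sorts. The p-values therefore reflect only how far these samples spread, possibly for technical reasons, and the number of arrays limits precision.

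Members and lists were chosen with earlier results of these data known. Named genes were all members, up to 5 called genes of smallest adjusted p per list, 11 genes fixed by name and the defining cell type markers, of which some, with 1 marker list, are not reported here. Alternatives were quantile normalization, a percentile over detected probes, normexp with an offset of 50, the deposited values, 2 other filters, a trended robust variance, the replicate number as a block, other ways to represent a gene, and leaving out each array.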

Additional observations from a re-analysis of the deposited data

How the results depend on the processing

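Nrg1 stayed lower and past the threshold in each of 11 alternatives that could test it, at log2 -4.61 to -1.78. The differences of the members kept their direction and side of the threshold with quantile normalization, the percentile over detected probes, the deposited values and a trended robust variance. No filter on dim probes left 889 probes higher and 793 lower of 55681, with 0 member probes or genes higher, 1 lower, and 5 and 1 of the pathway genes. A filter on all 4 arrays removed Nrg1 and Erbb4, so 0 member probes or genes were lower. With normexp 5748 probes and 25 pathway genes were lower, Erbb4 turned to 0.12, Tgfa to 0.25 and the Egfr upstream probe to -0.034, none of them called. The cause was not tested. The mean of a gene's probes left 1 member gene higher, as it averages the 3 Egfr probes. Leaving out 1 array gave 458 to 3830 probes higher and 576 to 4727 lower, 0 to 2 member probes and genes higher, 1 to 2 lower, and 4 to 23 pathway genes higher and 1 to 14 lower. The low ends came without a non-stem array, where the spread comes from the stem cell arrays alone and the lone array is assumed to vary like them. Egfr, Hbegf and Erbb4 lost their calls there and with no filter on dim probes. Erbb3 ranged from -0.0038 (without stem replicate 1) to 0.28 and the Egfr upstream probe from -0.0039 (without non-stem replicate 1) to 0.33. With the replicate number as a block 2734 probes were higher and 3563 lower, with 2 and 2 member probes and 18 and 11 pathway genes, and no member's call changed. Same-numbered arrays deviated with a correlation of -0.079, and nothing in the labels says that the number pairs them. Spike-in controls stood higher by a median log2 of 2.26 in stem cells after the percentile shift, and 0 of the tested member probes rose by more than that.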
